A study of Ovis aries with 6 samples.

Results

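ALDH1A1, DHRS3 and TTR encode proteins that make, return and carry vitamin A compounds, and their levels were compared between corneal epithelial cells and skin epidermal stem cells of sheep (Ovis aries). The probes were taken by name, for these 3 genes, and by the words retinol, retinoic acid or retinoid in the array's own description of a probe. The rule found 4 genes with 1 probe each, of 857 genes named here and 15008 gene probes on the array. It found 3 by name and 1, for the retinoid X receptor beta (RXRB), by words alone. ALDH1A1, DHRS3 and TTR had been chosen because they differed between the 2 kinds of cells in these same arrays, so their values are given as a description with no test. RXRB was not chosen on its values and was tested.

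The corneal group held 3 samples of cultured corneal epithelial cells and the epidermal group 3 samples of cultured skin epidermal stem cells. The labels give no breed, age, genotype or treatment for either group, and both were grown as adherent cells and lifted with trypsin before RNA was taken. The series' design text calls the samples cell lines, and nothing in the labels says that they came from separate animals, so p-values measure only how these samples vary, and that variation may be technical. Each sample had 1 single-colour Agilent sheep array.

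Well-above-background gene spots numbered 11091 to 11539 of 15208 on the corneal arrays and 11785 to 12414 on the epidermal arrays, with no saturated spots. The 6 arrays shared 1 slide, the corneal ones in slide row 2 and the epidermal ones in slide row 1, so slide row and kind of cell cannot be told apart. Few markers of the labelled kinds could be read. Of the 15008 probes 13647 stayed unnamed here, so a marker without a named probe may still be on the array. Of 7 corneal epithelium markers only PAX6 had a named probe, with a corneal minus epidermal difference of 0.31 ± 0.07 (SE) on the log2 scale and an adjusted p = 0.0128. Of the 5 keratinocyte markers with a named probe, TP63 was above background on no array and KRT14 on no corneal and 2 epidermal arrays. KRT15 was above background on 1 corneal and 3 epidermal arrays and did not pass at -0.14 ± 0.13 (adjusted p = 0.415). KRTDAP, on no corneal and 3 epidermal arrays, was at least 1.34-fold lower in corneal cells on the scale of the processed signal. It was kept through its epidermal arrays alone, so its adjusted p = 0.0213 for the fit is not read as support. SBSN, above background on all 6 arrays, did not pass at -0.41 ± 0.19 (adjusted p = 0.119). All 7 fibroblast and mesenchymal markers with a probe were above background on all 6 arrays, with a summed level of 925 to 947 on the corneal and 962 to 1197 on the epidermal arrays, in multiples of each array's 75th percentile. On this scale the 5 keratinocyte markers summed to 0.22 to 0.26 on corneal and 0.26 to 0.41 on epidermal arrays. PAX6 alone was at 0.18 to 0.21 and 0.15 to 0.16. These sums come from different probes, so no share of cells is read from them. Of the 7 mesenchymal markers, COL3A1, a collagen gene, was lower in corneal cells by -4.51 ± 0.05 (adjusted p = 1.64e-07). The other markers that passed were lower by far less, with COL1A1 at -0.54, PDGFRA at -0.51 and LUM at -0.39. VIM, the filament protein vimentin, did not pass at -0.05 ± 0.07 (adjusted p = 0.558). Nor did COL1A2 at -0.08 ± 0.04 (adjusted p = 0.118) or DCN at 0.07 ± 0.22 (adjusted p = 0.794). Summed levels were 14.6 to 15.0 on corneal and 22.6 to 23.5 on epidermal arrays for 3 immune cell markers. Nearly all of this sum was CD14, lower in corneal cells by -0.66 ± 0.03 (adjusted p = 2.20e-05). TYROBP at -0.16 ± 0.07 (adjusted p = 0.113) and CD3E at -0.26 ± 0.14 (adjusted p = 0.155) did not pass. For 2 corneal endothelium markers the sum was 6.84 to 7.11 on corneal and 5.22 to 7.29 on epidermal arrays. The part of such cells in the results was not tested.

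Retinoids are derivatives of vitamin A. Cells oxidise retinol to retinaldehyde and then, by an irreversible step, to retinoic acid, which binds nuclear receptors that pair with retinoid X receptors and switch genes on or off. Retinoic acid is known to shape the differentiation of both skin and corneal epithelium, and lack of vitamin A makes the eye surface keratinise. ALDH1A1 is a cytosolic retinaldehyde dehydrogenase that makes retinoic acid. DHRS3 is a short-chain dehydrogenase/reductase that turns retinaldehyde back into retinol, and its gene is itself induced by retinoic acid in other species. TTR, transthyretin, carries thyroid hormone and, with retinol-binding protein, retinol in blood, and in the eye it is known from the retinal pigment epithelium.

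Each gene was read by 1 spot per array, carrying a probe of 60 bases. The final 30 bases of each probe, as the array's design gives them, are shown because each value below rests on one such sequence alone. Capitals mark the letters AATAAA, which are those of a polyadenylation signal. They were searched on the given strand and are held by 5.6% of all probes.
ALDH1A1: atacttagatgtaacctaaacatacactgt
DHRS3: aggaatatattaAATAAAgagagaaagctt
TTR: tgtgtaaccaagagtatttcatttttatta
RXRB: tccccaggttgactaagagatgccagtggt
None of the 4 probes shares a stretch of 20 bases with any other probe on the array, on either strand. Their GC content was 35.0% for ALDH1A1 and TTR, 38.3% for DHRS3 and 45.0% for RXRB, against a median of 43.3% over all probes. ALDH1A1 and TTR lie below the lower quartile of 38.3%. The array names DHRS3 and RXRB only through descriptions of the bovine and pig transcripts they resemble.

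ALDH1A1 was far lower in the corneal cells. Its normalized level, the log2 of the processed signal minus the array's 75th percentile, was -3.23, -3.27 and -3.10 in corneal replicates 1, 2 and 3 and 1.66, 1.63 and 1.61 in epidermal replicates 1, 2 and 3. The 3 corneal arrays all lay low and the 3 epidermal arrays all high and close together, with a gap of 4.71 between the nearest arrays of the groups. Means were -3.20 ± 0.09 in corneal and 1.63 ± 0.02 in epidermal cells (SD, n = 3 each). The fitted difference was -4.83 ± 0.05 (SE), which is 28.5-fold lower in corneal cells. In these bulk samples, fewer cells that express a gene and less of its RNA per cell cannot be told apart.

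DHRS3, which turns retinaldehyde back into retinol, lay the other way. Its normalized log2 level was -0.40, -0.53 and -0.48 in corneal replicates 1, 2 and 3 and -2.37, -2.44 and -2.51 in epidermal replicates 1, 2 and 3. The groups did not overlap and were 1.84 apart at their nearest arrays. Means were -0.47 ± 0.06 in corneal and -2.44 ± 0.07 in epidermal cells (SD, n = 3 each). The fitted difference was 1.97 ± 0.05 (SE), or 3.92-fold higher in corneal cells.

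TTR was also higher in the corneal cells. Its normalized log2 level was -1.54, -1.62 and -1.57 in corneal replicates 1, 2 and 3 and -4.37, -4.71 and -4.47 in epidermal replicates 1, 2 and 3. The corneal arrays lay within 0.08 of each other and the epidermal arrays within 0.34, and the groups were 2.75 apart. Means were -1.58 ± 0.04 in corneal and -4.52 ± 0.17 in epidermal cells (SD, n = 3 each). The fitted difference was 2.94 ± 0.09 (SE), or 7.68-fold higher in corneal cells.

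RXRB, the shared partner of the retinoic acid and many other nuclear receptors, was tested and did not pass. Its normalized log2 level was -1.45, -1.45 and -1.60 in corneal replicates 1, 2 and 3 and -0.62, -1.38 and -0.91 in epidermal replicates 1, 2 and 3. Epidermal replicate 2 lay only 0.07 above the highest corneal array, and the other two epidermal arrays lay well above it. Means were -1.50 ± 0.09 in corneal and -0.97 ± 0.38 in epidermal cells (SD, n = 3 each), and 97.5% of the kept probes had a smaller SD among epidermal arrays. The difference of -0.53 ± 0.19 (SE, unadjusted 95% interval -1.01 to -0.06) did not pass in the limma fit across all kept probes, with an adjusted p = 0.0567. In this fit 63.9% of all kept probes had an unadjusted p under 0.05. Without epidermal replicate 2 the difference was -0.74 with an adjusted p = 0.00456, so the call changed without this 1 array. Leaving out any other single array gave an adjusted p between 0.104 and 0.140. Without epidermal replicate 1 the difference was -0.36 (adjusted p = 0.110).

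**Figure D1:**
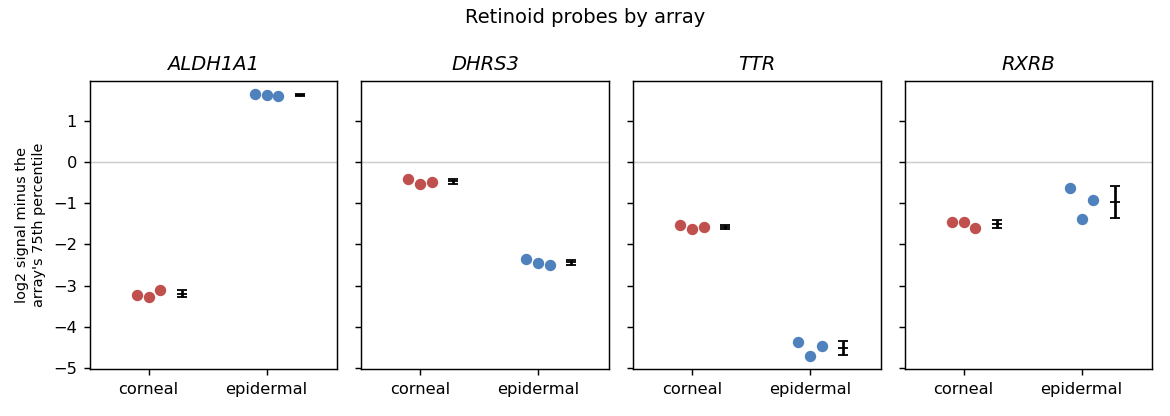
Normalized log2 level (signal minus the array's 75th percentile) of each probe on every array, corneal left and epidermal right; points are arrays, and the black bars are the mean ± SD of the 3 arrays. The groups lie 4.71 apart for ALDH1A1, 1.84 for DHRS3, 2.75 for TTR and 0.07 for RXRB, where the epidermal arrays spread over 0.75.

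The dim side of each difference was well above background by the scanner software's own test on every array, with no outlier mark on any of the 4 probes' spots. The mean brightness of the ALDH1A1 spot over its local background was 3.12, 3.16 and 3.70 in corneal replicates 1, 2 and 3, against 68.9, 58.9 and 67.3 in epidermal replicates 1, 2 and 3. For TTR it was 7.66, 7.47 and 7.70 in corneal and 2.45, 2.18 and 2.19 in epidermal replicates 1, 2 and 3. The spots nearest to their background were thus those of TTR in epidermal cells. For DHRS3 the ratio was 14.8, 14.2 and 17.1 in corneal and 5.44, 5.25 and 4.57 in epidermal replicates 1, 2 and 3. For RXRB it was 8.03, 8.79 and 7.99 in corneal and 16.3, 8.08 and 12.4 in epidermal replicates 1, 2 and 3.

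**Figure D2:**
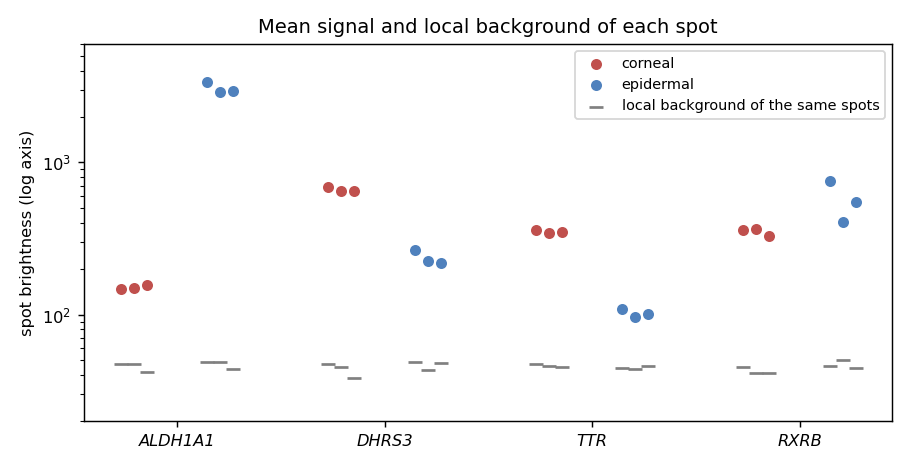
Mean signal of each member's spot (coloured points, log axis, scanner units) and the local background of the same spots (grey dashes) in 3 corneal and 3 epidermal arrays per gene. The TTR spots of epidermal cells were 2.18 to 2.45 times their background and the ALDH1A1 spots of corneal cells 3.12 to 3.70 times.

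The size of these folds depended on the background correction. The normexp correction used here adds an offset of 50 to every signal, which by itself shrinks a fold with a dim side. These smaller folds are thus no separate evidence on background. With normexp correction, after leaving out 11 spots of extreme local background, ALDH1A1 differed by -4.14, TTR by 1.92 and DHRS3 by 1.66 on the log2 scale. With those spots left in, the values were -3.99 for ALDH1A1, 1.11 for TTR and 1.20 for DHRS3. Over the 17 other ways of processing that were tried, the fold ranged from 15.9 to 32.1 for ALDH1A1, from 2.15 to 8.18 for TTR and from 2.30 to 4.02 for DHRS3. The direction was the same under all 17 for each of these genes and for RXRB, whose difference lay between -0.74 and -0.36. RXRB passed the threshold under 4 of the 17.

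**Figure D3:**
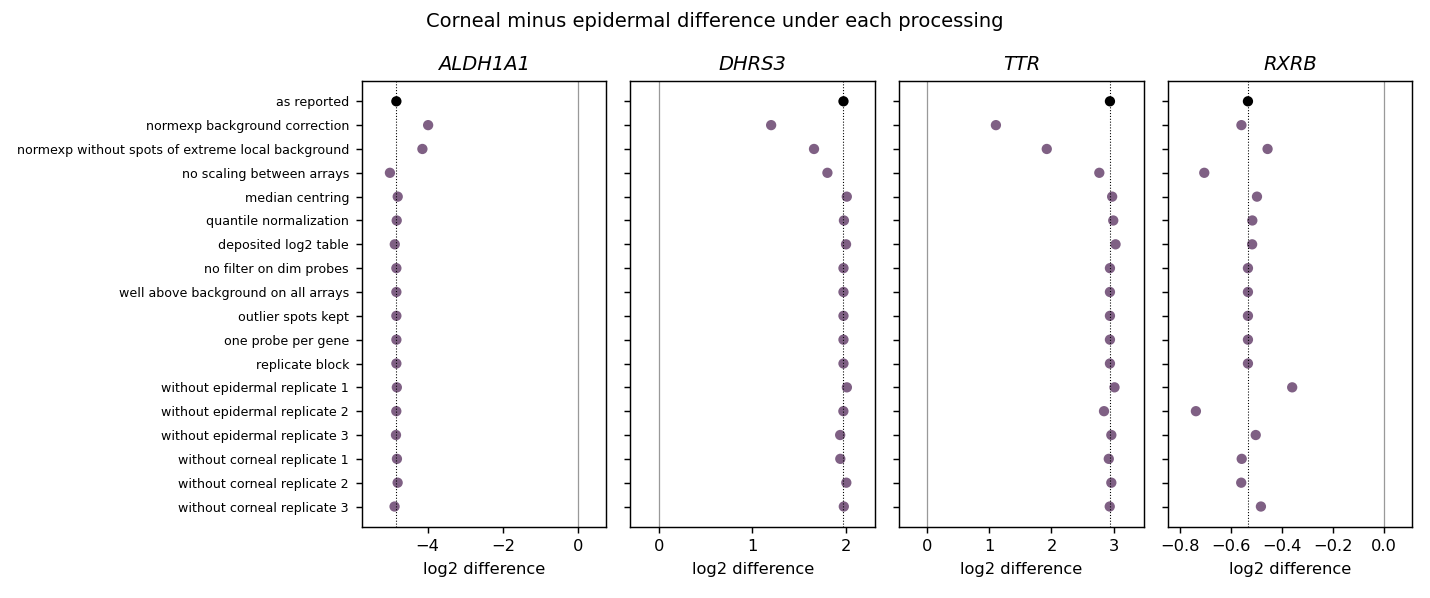
Corneal minus epidermal difference (log2) of each probe as reported (black) and under 17 other settings (purple), one row per setting; the dotted line marks the reported value and the grey line 0. ALDH1A1 stayed between -5.00 and -3.99, DHRS3 between 1.20 and 2.01 and TTR between 1.11 and 3.03, and the RXRB value moved most when epidermal replicate 1 or 2 was left out.

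The 2 kinds of cells differed widely over the whole array. Of 11742 probes kept, 6999 or 59.6% passed an adjusted p of 0.05, with 3138 or 26.7% higher and 3861 or 32.9% lower in corneal cells, and the median difference was -0.04. Because the 3 named genes were chosen on this contrast, nothing is read from their place in it. Of the 1 probe found by words alone, 0 passed.

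**Figure D4:**
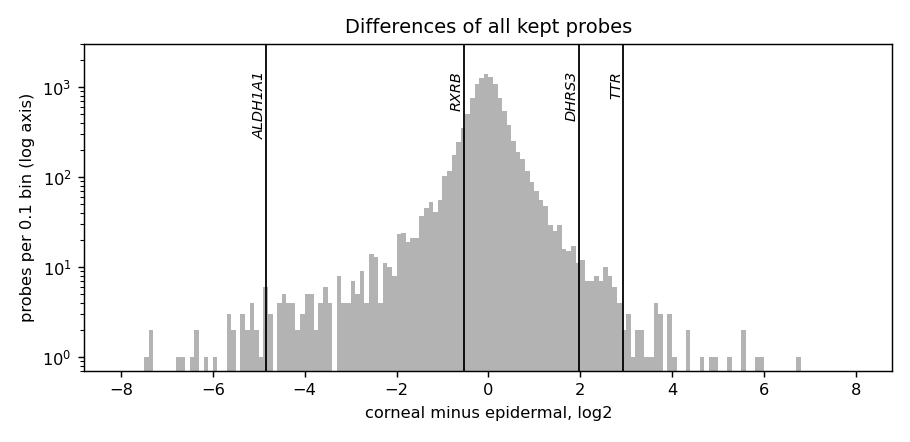
Number of kept probes (log axis) by corneal minus epidermal difference (log2, bins of 0.1), with lines at the 4 retinoid probes. The lines stand at -4.83 for ALDH1A1, 2.94 for TTR, 1.97 for DHRS3 and -0.53 for RXRB. ALDH1A1, TTR and DHRS3 were chosen on this contrast, so their place is not a result.

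The rest of the pathway was read from lists of 131 genes by role, of which 31 had a named probe and 28 were measured. Leaving out the 3 chosen genes, 4 of 25 were higher, 11 lower and 10 did not pass. The called share of 60.0% is near the 59.6% of all probes. Their median difference was -0.15, against -0.04 over all kept probes. PPARG, HOXA4 and HOXA5, all among the lower genes, were above background on no corneal array and were kept through their epidermal arrays alone. With only probes well above background on all arrays, 4 pathway genes were higher and 9 lower, RXRB among the lower. Over all probes, 3145 were then higher and 3603 lower. The lists were also chosen with earlier results of these data known, so no lean of the pathway is read from these counts. Under normexp correction with no spots left out, 0 were higher and 3 lower (AKR1C3, FABP5 and EGR1), while the calls over all probes fell to 195 higher and 230 lower.

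Among enzymes that interconvert retinol, retinaldehyde and retinoic acid, AKR1C3 was the 1 measured gene besides ALDH1A1 and DHRS3. AKR1C3, an aldo-keto reductase that acts on steroids, prostaglandins and, in human cells, retinaldehyde, had normalized log2 levels of -4.94, -5.06 and -4.92 in corneal replicates 1, 2 and 3 and -0.15, -0.18 and -0.15 in epidermal replicates 1, 2 and 3. The groups lay far apart, with a difference of -4.81 ± 0.05 (SE, adjusted p = 1.51e-07). Its kept probes differed from -4.81 to -4.01, and they may also bind close relatives in the AKR1C family. With normexp correction, which here adds an offset of 50 to every signal, the difference was -3.30 with the 11 spots left in and -3.31 without them, and passed in both (adjusted p = 0.000361 and 1.51e-09). Among the other aldehyde dehydrogenases, ALDH2, the mitochondrial acetaldehyde enzyme, was lower by -0.33 ± 0.03 (adjusted p = 0.000197). ALDH9A1 was lower by -0.27 ± 0.04 (adjusted p = 0.00349) and ALDH5A1 higher by 0.24 ± 0.03 (adjusted p = 0.000615), while ALDH6A1, at 0.24 ± 0.12, did not pass (adjusted p = 0.136). Without scaling between arrays ALDH5A1 did not pass (0.067, adjusted p = 0.461).

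Of 3 measured genes for retinyl ester storage and release, PNPLA2, a triglyceride lipase of lipid droplets, was higher by 0.51 ± 0.06 (adjusted p = 0.000829). DGAT1, which esterifies diacylglycerol and retinol, was lower by -0.15 ± 0.04 (adjusted p = 0.0150), but not without corneal replicate 2 (adjusted p = 0.0536). LIPA, the lysosomal acid lipase, did not pass at -0.03 ± 0.05 (adjusted p = 0.612).

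Among carriers and uptake genes besides TTR, FABP5, a fatty acid binding protein that also carries retinoic acid, had normalized log2 levels of 2.17, 2.13 and 2.14 in corneal replicates 1, 2 and 3 and 3.55, 3.56 and 3.53 in epidermal replicates 1, 2 and 3. It was lower in corneal cells by -1.40 ± 0.03 (adjusted p = 1.30e-06), with its kept probes between -1.40 and -0.82. LRP1, a lipoprotein receptor, was lower by -0.46 ± 0.03 (adjusted p = 7.54e-05). SCARB1, a scavenger receptor that takes up carotenoids, did not pass at -0.08 ± 0.13 (adjusted p = 0.633). Its sign turned under some scalings, with 0.12 under quantile normalization. For the other cargo of TTR, thyroid hormone, neither nuclear receptor passed. THRA, above background on no corneal array, was kept through its epidermal arrays alone. Its bound on the scale of the processed signal was at least 1.03-fold lower in corneal cells. The fitted difference of THRA was -0.34 ± 0.16 (adjusted p = 0.128). It was -0.49 without corneal replicate 2 (adjusted p = 0.0242) and -0.51 without scaling (adjusted p = 0.0343). With normexp correction without the 11 spots it lay in the other direction, at 0.15 (adjusted p = 0.0487). THRB differed by 0.16 ± 0.07 (adjusted p = 0.111), and by 0.23 under quantile normalization (adjusted p = 0.0245).

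Of the receptors besides RXRB, PPARG, a partner of retinoid X receptors best known from fat cells, was above background on no corneal array and on all 3 epidermal arrays. It was kept through its epidermal arrays alone, so the adjusted p = 0.000101 of its fitted change is not read as support. In corneal cells it was at least 5.49-fold lower on the scale of the processed signal. This bound does not hold under normexp correction, where the difference was -0.90 without the 11 spots (adjusted p = 9.90e-06) and -1.59 with them, which did not pass (adjusted p = 0.296). The bound sets the epidermal mean against the lowest corneal signal that counts as well above background. Both measured coregulators stayed short of the threshold, with CREBBP, an acetyltransferase, at 0.02 ± 0.03 (adjusted p = 0.622) and HDAC3, a corepressor deacetylase, at -0.01 ± 0.06 (adjusted p = 0.930). The 1 gene of retinoic acid breakdown with a named probe, CYP2C19, was at background on every array.

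Of 7 measured genes known to respond to retinoic acid, besides DHRS3, 2 were higher (28.6%, against 26.7% of all probes), 4 lower (57.1%, against 32.9%) and 1 did not pass. HOXA4 and HOXA5, both among the lower genes, were kept through their epidermal arrays alone, so no lean is read from these shares. TGM2, tissue transglutaminase and a classical retinoic acid target, had normalized log2 levels of -4.57, -4.83 and -4.59 in corneal replicates 1, 2 and 3 and -3.35, -3.16 and -3.26 in epidermal replicates 1, 2 and 3, opposite in direction to DHRS3. It was lower in corneal cells by -1.41 ± 0.09 (adjusted p = 6.71e-05), and by -0.57 with normexp correction without the 11 spots (adjusted p = 0.000117). EGR1, an immediate early transcription factor, was lower by -1.95 ± 0.07 (adjusted p = 1.05e-05), though its 6 probes ranged from -1.95 to -0.21. HOXA5, a positional homeobox gene, was at least 7.19-fold lower and HOXA4, its neighbour in the cluster, at least 2.05-fold lower, with adjusted p = 0.000184 and 0.00439 for the fitted changes and no corneal array above background for either. These bounds too hold on the scale of the processed signal alone. The p-values of HOXA5 and HOXA4, kept through their epidermal arrays alone, are not read as support. With normexp correction without the 11 spots, HOXA5 differed by -1.08 (adjusted p = 4.05e-06) and HOXA4, at -0.09, did not pass (adjusted p = 0.186). With the spots left in, HOXA5 at -1.73 and HOXA4 at -0.99 did not pass (adjusted p = 0.205 and 0.575). TGFB2, a growth factor, was higher by 0.63 ± 0.12 (adjusted p = 0.00507) and BHLHE40, a repressor of transcription, by 0.44 ± 0.07 (adjusted p = 0.00352). Both took the opposite sign under normexp correction with no spots left out, at -0.46 for TGFB2 and -0.72 for BHLHE40, and BHLHE40 did not pass without scaling (adjusted p = 0.0528). ICAM1, an adhesion molecule, did not pass at -0.10 ± 0.04 (adjusted p = 0.0612), but did without scaling (-0.28, adjusted p = 0.0234).

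**Figure D5:**
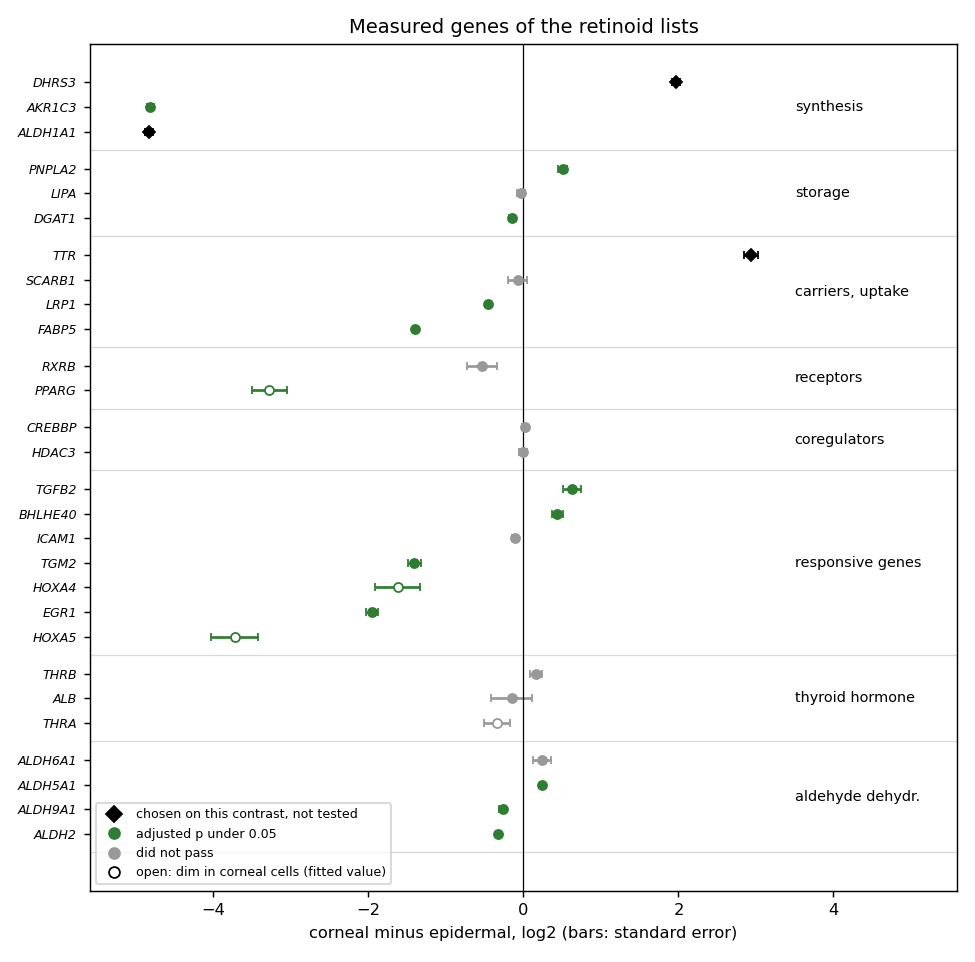
Corneal minus epidermal difference (log2) of each measured gene of the lists, with its standard error, ordered by role; diamonds were chosen on this contrast and not tested, green points passed, grey points did not, and open points are fitted values of genes above background on no corneal array. ALDH1A1 lies at -4.83 and AKR1C3 at -4.81 as reported, apart from each other under normexp correction with its offset of 50. TTR and DHRS3 lie on the other side.

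TTR is best known from liver, choroid plexus and retinal pigment epithelium, so markers of liver and of pigmented eye epithelium were read beside it. Of 10 retinal and ciliary epithelium markers 2 had a named probe. SERPINF1, a secreted factor of that epithelium and of fibroblasts, was lower in corneal cells by -1.60 ± 0.05 (adjusted p = 6.44e-06), and TYR was above background on 1 corneal array and no epidermal one. Of 6 liver and plasma protein markers with a named probe, TF, transferrin, was higher by 2.00 ± 0.04 (adjusted p = 1.07e-06), and AHSG and SERPINA1 were above background on no array. The other 3 measured markers did not pass, with APOA1 at 0.18 ± 0.06 (adjusted p = 0.0547), AMBP at -0.05 ± 0.26 (adjusted p = 0.875) and ALB, a plasma carrier of thyroid hormone, at -0.15 ± 0.26 (adjusted p = 0.642). ALB passed as higher with normexp correction without the 11 spots (0.16, adjusted p = 0.0228). The summed level of all 6 was 4.84 to 5.13 on corneal and 1.27 to 1.34 on epidermal arrays, and nearly all of it was TF. The part of such cells in the TTR values was not tested.

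Among 928 named probes, the profiles over the 6 arrays most like that of ALDH1A1, by Euclidean distance of log2 values centred on each probe's mean, were those of AKR1C3 at 0.089, another probe of COL3A1, the fibrillar collagen gene given above, at 0.214 and XDH, xanthine dehydrogenase, at 0.387. The nearest to DHRS3 were TF at 0.133, CRYAB, a small heat shock protein of lens and muscle, at 0.296 and HBB, a haemoglobin chain, at 0.342. The nearest to TTR were ANKRD1, an ankyrin repeat protein of stressed muscle, at 0.326, TLR2, a receptor for bacterial lipoproteins, at 0.362 and SHMT1, an enzyme of folate metabolism, at 0.377. With 2 groups far apart, nearness mainly shows a like difference between the groups, and the corneal minus epidermal values were -4.81, -4.77 and -5.11 for AKR1C3, this COL3A1 probe and XDH, 2.00, 2.18 and 1.71 for TF, CRYAB and HBB, and 2.87, 2.75 and 2.70 for ANKRD1, TLR2 and SHMT1.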

How the data were processed

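Total RNA of 3 corneal and 3 epidermal samples was Cy3-labelled and hybridised to sheep expression arrays, per the labels' protocols. Intensities were extracted by the authors with Agilent Feature Extraction 10.7 (source: the submitters' processing notes). Per the file headers these are linear intensities, and the processed signal has background subtracted. A deposited log2 table of the same arrays, for which no processing steps are named in these sources, was an alternative. Control spots and outlier spots were left out, spots of a probe were averaged, and from the log2 of the processed signal the array's own 75th percentile was subtracted. Probes well above background on at least 3 of 6 arrays were kept (11742 of 15008). limma 3.58.1 (lmFit and eBayes, in R 4.3.3) was run on every kept probe, corneal minus epidermal, with Benjamini-Hochberg adjustment over all kept probes and a threshold of 0.05. The code was tested on simulated data.

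Names came from the arrays' annotation, matched to a RefSeq gene table (assembly ARS-UI_Ramb_v3.0). Of the probes, 767 were named by accession, 541 by symbol, 18 by synonym and 35 by description (of listed genes alone), and 13647 stayed unnamed here. A gene is shown by its kept probe of highest mean. A level above background on no array of a group is given as a bound, and fitted values of such genes rest on signal at background there. Members and lists were chosen with earlier results of these data known. Named from each list were the called genes with the largest differences, up to 3 each way, and the brightest that did not pass, from marker lists the brightest and those at background, and for each chosen gene the 3 nearest profiles. A few others that did not pass, and marker genes, were named after their values were seen. Alternatives were background correction, scaling, the deposited table, filters, outlier spots, 1 probe per gene, a replicate block and each replicate left out. The number of arrays limits the precision.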

Additional observations from a re-analysis of the deposited data

How the results depend on the processing

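All 4 retinoid probes kept their direction under every alternative run. With normexp correction and 11 spots of extreme local background left in, 195 probes were higher and 230 lower, and 0 and 3 of the pathway genes. ALDH1A1 was then -3.99, DHRS3 1.20 and TTR 1.11, and BHLHE40 (-0.72), TGFB2 (-0.46), THRB (-0.67) and ALDH6A1 (-0.34) took the opposite sign. Without those spots ALDH1A1 was -4.14, DHRS3 1.66, TTR 1.92 and RXRB -0.46 (adjusted p = 0.0450, so 1 probe found by words was lower), and SCARB1 (0.10), CREBBP (-0.0045), HDAC3 (0.066), ALB (0.16, adjusted p = 0.0228) and THRA (0.15, adjusted p = 0.0487) turned. Without scaling, which moved the median of all probes to -0.22 (-0.29 under normexp with the spots left in), 1534 probes were higher and 5297 lower, so that 22.5% of calls were higher, against 44.8%. Then 2 of the 25 pathway genes were higher and 14 lower, beside these counts over 11742 kept probes. ALDH1A1 was -5.00, DHRS3 1.80 and RXRB -0.71 (adjusted p = 0.0286), so 1 probe found by words was lower. THRA (-0.51, adjusted p = 0.0343) and ICAM1 (-0.28, adjusted p = 0.0234) passed, and CREBBP (-0.15) and THRB (-0.011) turned. Median centring turned LIPA (0.0044) and HDAC3 (0.029). Quantile normalization turned SCARB1 (0.12), HDAC3 (0.034) and ALB (0.079), as did the deposited table (0.11, 0.035 and 0.079). Keeping only probes well above background on all arrays left RXRB at -0.53 with an adjusted p = 0.0439, so 1 probe found by words was lower. The cause of these changes was not tested.

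With 1 array left out at a time, ALDH1A1 ranged from -4.88 to -4.80, DHRS3 from 1.94 to 2.01, TTR from 2.85 to 3.01 and RXRB from -0.74 to -0.36, and 0 to 1 probes found by words were lower. HDAC3 ranged from -0.034 to 0.041, ALB from -0.38 to 0.0099 and SCARB1 from -0.16 to 0.046. The deviations of same-numbered corneal and epidermal arrays correlated at 0.017, -0.029 and 0.038. The labels name no pairing, and with deviations that may be technical these values cannot tell whether same-numbered samples shared an origin. With the replicate block, RXRB stayed at -0.53 (adjusted p = 0.0748), 2771 probes were higher and 3452 lower, and DGAT1 lost its call (adjusted p = 0.0587). The slide could not be used as a block because all arrays share 1. Signal near background limits the fold of TTR in epidermal cells and of ALDH1A1 in corneal cells.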
